A study of Mus musculus with 8 samples.

Results

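The genes described here are 10 members of the bone morphogenetic protein (BMP) and activin branch of TGF-beta signalling: the secreted antagonists Grem1, Fst and Nog, the ligands Bmp2, Bmp4 and Bmp7, and the nuclear targets Id1, Id2, Id3 and Id4. They were found by gene symbol in the array annotation, and all 10 were among the 17097 genes measured. The arrays came from mouse skin squamous cell carcinomas (SCC) of K14-HPV16 mice, whose transgene is driven by a promoter of basal keratinocytes. The tumours arose spontaneously or after DMBA and TPA, had the mixed strain label FVB/C57/Bl6, and were grown by serial grafting onto the skin of nude mice, hosts that lack T cells but keep other stromal and blood cells. Poorly differentiated tumours (PD-SCC, written PD/S-SCC in the titles) were set against well differentiated tumours (WD-SCC) of the same 3 lineages, OT7, OT14 and OT15. Both stages were sorted alike, for cells positive for α6-integrin and CD34 after depletion of blood and endothelial cells. Each stage had 4 arrays, 2 from OT7 and 1 from each of the other lineages. The titles call each array a biological replicate. The labels give no ages, nor whether both OT7 arrays of 1 stage stem from different animals. The p-values thus measure only the spread between these samples.

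BMPs bind paired serine and threonine kinase receptors, which phosphorylate the SMAD proteins that then enter the nucleus and raise the transcription of Id genes. Id proteins lack a DNA-binding region and hold E proteins, partners of many lineage-specifying transcription factors, away from DNA. Gremlin 1 (Grem1) and noggin (Nog) bind BMP ligands outside the cell and block them, whereas follistatin (Fst) mainly binds activins. In skin, BMP signalling is known for holding hair follicle stem cells at rest and for promoting keratinocyte differentiation.

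Values are log2 expression per array, and differences are PD-SCC minus WD-SCC on that log2 scale, fitted with limma with lineage as a block. Adjusted p are Benjamini-Hochberg values over all 17097 genes, and a gene is said to rise or fall when the adjusted p is under 0.05. Of the 10 members, 3 passed, 1 higher (Grem1) and 2 lower (Fst and Id2), while 12.6% of all genes passed. Of all genes, 7.78% were higher and 4.81% were lower. The median difference of the members was -0.44, against -0.06 over all genes. A gene was taken as above background on an array when it exceeded the highest of 15 unspiked bacterial control probe sets there, which stood at 3.61 to 3.81 on PD-SCC arrays and at 3.82 to 4.37 on WD-SCC arrays. By this measure 7 members were above background on all 8 arrays, and Nog, Bmp4 and Bmp7 were not. The median of the members lies between the differences of Bmp7 (-0.46) and Nog (-0.42), so it rests on genes near or under background. The number of arrays limits the precision.

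The sorted cells were checked against markers. Itga6 lay between 6.14 and 7.85 on PD-SCC arrays and between 5.32 and 8.15 on WD-SCC arrays. Cd34 lay between 6.75 and 8.72 in PD-SCC and between 3.58 and 7.002 in WD-SCC, where the OT15 array was not above background although its cells were sorted for CD34. Of 10 keratinocyte markers measured, 6 fell, and the log2 of their summed signal was 7.23 to 9.56 in PD-SCC and 12.7 to 13.5 in WD-SCC. Krt5 fell to 4.16 ± 0.17 in PD-SCC, against 11.26 ± 0.49 in WD-SCC, and Krt14 to 5.73 ± 1.45 in PD-SCC, against 10.74 ± 0.38 in WD-SCC (SD, n = 4). The summed signal of 12 fibroblast markers was 9.98 to 11.7 in PD-SCC and 9.07 to 13.02 in WD-SCC. For 10 haematopoietic markers it was 7.26 to 7.84 in PD-SCC and 8.67 to 9.42 in WD-SCC. For 8 endothelial and pericyte markers it was 6.74 to 8.72 in PD-SCC and 7.10 to 10.5 in WD-SCC. Of the haematopoietic markers, Ptprc, Itgam and Adgre1 were not above background on any array, while Cd68, Csf1r and Cd79a were above it on all 8. Cd68, a macrophage marker, fell to 4.97 ± 0.89 in PD-SCC, against 7.76 ± 0.19 in WD-SCC (SD, n = 4, limma adjusted p = 0.0141). The endothelial marker Pecam1 was above background on 3 of 4 PD-SCC and 4 of 4 WD-SCC arrays. It measured 3.47 to 4.21 in PD-SCC and 4.34 to 7.54 in WD-SCC, although both stages were depleted of endothelial cells. In such sorted bulk samples, fewer cells of a type and less RNA per cell cannot be told apart.

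**Figure D1:**
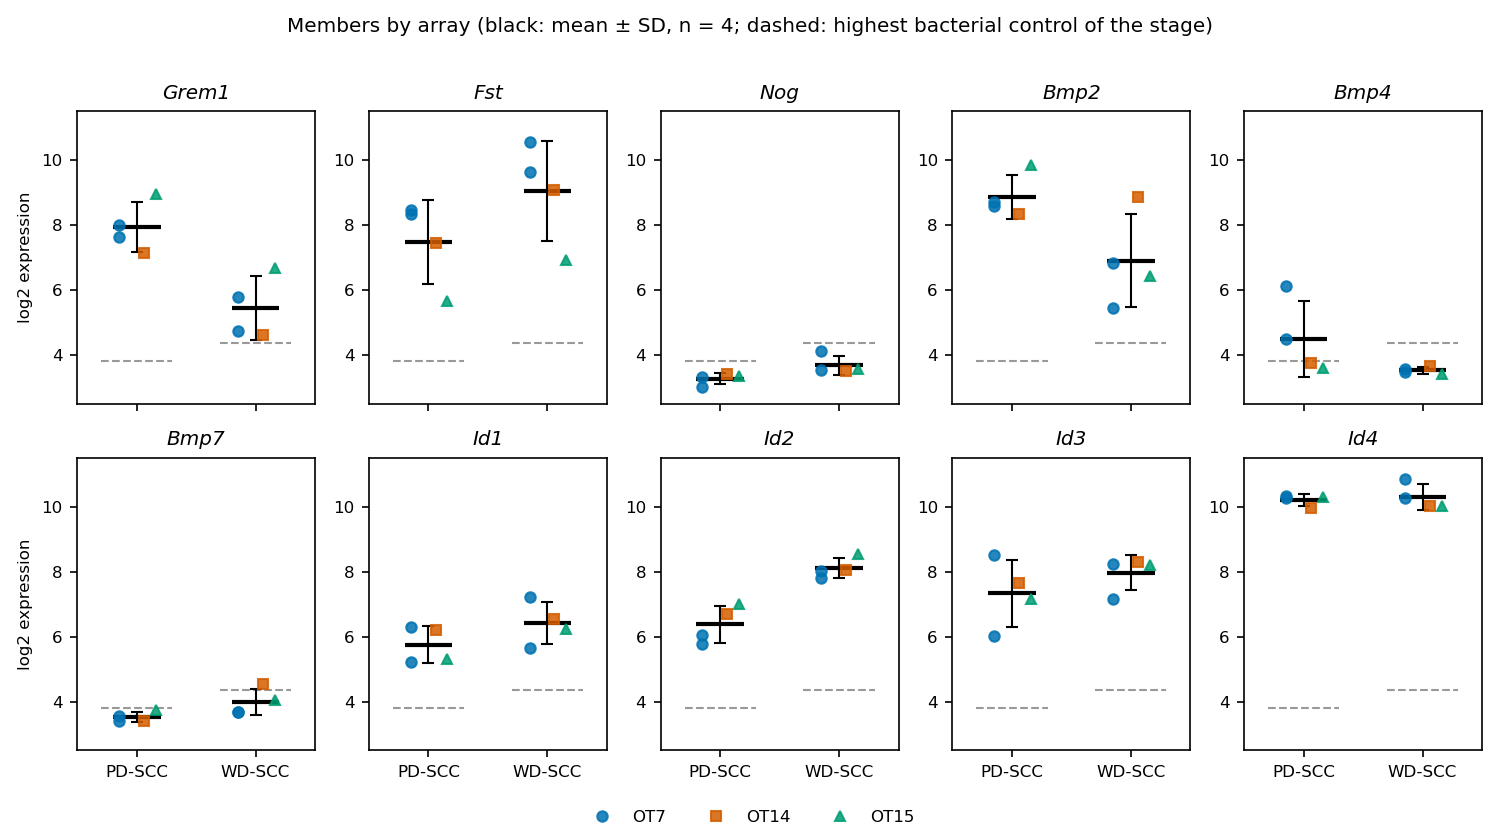
Log2 expression of the 10 members on each array, with PD-SCC left and WD-SCC right, lineages by colour and symbol, the stage mean ± SD (n = 4) in black and the highest bacterial control of the stage dashed. Grem1 is higher on all PD-SCC arrays and Id2 lower, Fst is lower within each lineage although the stages overlap, and Nog lies under the dashed line in both stages.

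The promoters of the antagonist that rose and of the Id gene that fell are shown as the regulatory sequence next to these measurements. RefSeq's promoter table (GRCm38.p6) held 5 of the 10 members, Grem1, Bmp4, Id2, Id3 and Id4. The 250 bases before the transcription start are given 5′ to 3′ on the gene's strand, for Grem1 at chr2:113758649-113758898 and for Id2 at chr12:25096093-25096342, both on the minus strand. Capitals mark GGCGCC, a GC-rich sequence known to bind BMP-activated SMADs, and CAGAC, a short SMAD-binding sequence, searched on both strands (GGCGCC reads the same on both, and the motifs do not overlap).
Grem1: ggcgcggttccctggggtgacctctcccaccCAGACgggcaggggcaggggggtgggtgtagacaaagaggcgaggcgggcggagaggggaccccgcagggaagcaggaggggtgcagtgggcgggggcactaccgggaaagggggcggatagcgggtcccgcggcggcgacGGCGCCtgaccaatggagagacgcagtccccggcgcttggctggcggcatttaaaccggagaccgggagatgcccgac
Id2: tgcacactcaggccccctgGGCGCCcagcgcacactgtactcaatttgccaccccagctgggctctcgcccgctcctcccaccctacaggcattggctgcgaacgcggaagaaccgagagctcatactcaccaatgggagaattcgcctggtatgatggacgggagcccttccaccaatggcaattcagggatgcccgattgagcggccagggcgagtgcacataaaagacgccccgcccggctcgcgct
The Grem1 window held 1 GGCGCC, which began 78 bases before the start, and 1 CAGAC at 219 bases, and the Id2 window held 1 GGCGCC at 231 bases and no CAGAC. Of all 32851 windows of this length, 9.59% held GGCGCC and 42.2% held CAGAC. Among the other members in the table, Id4 held 1 GGCGCC, Id3 held 2 CAGAC and Bmp4 held neither. These windows were 62.8% to 75.6% G and C. A match is a description of these letters, and binding was not measured here.

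Grem1, the BMP antagonist, rose in PD-SCC. Its log2 values were 7.64 and 8.005 in OT7, 7.14 in OT14 and 8.96 in OT15 PD-SCC, against 5.77 and 4.73 in OT7, 4.61 in OT14 and 6.69 in OT15 WD-SCC. All 4 PD-SCC arrays lay above all 4 WD-SCC arrays, and OT15 was the highest lineage in each stage. The mean was 7.94 ± 0.77 in PD-SCC and 5.45 ± 0.98 in WD-SCC (SD, n = 4), a log2 difference of 2.49 ± 0.25 (SE) or 5.61-fold, with an adjusted p of 0.00560. By lineage, the difference was 2.57 for OT7, 2.53 for OT14 and 2.27 for OT15. Grem1 is also made by fibroblasts, and the 12 fibroblast markers did not move one way. By sign alone, 4 of them were higher in PD-SCC for OT7, 10 for OT14 and 5 for OT15, with median differences of -1.07, 1.37 and -0.33 in that order. The collagen gene Col1a1 had differences of -1.89 (OT7), 4.39 (OT14) and -1.20 (OT15), and Col3a1 had -0.19, 6.22 and -1.03. Pdgfra, Pdgfrb and Col6a3 were higher in PD-SCC for all 3 lineages. The differences were 0.24, 1.11 and 1.03 for Pdgfra, 0.95, 0.46 and 0.51 for Pdgfrb, and 0.01, 4.43 and 1.26 for Col6a3. Pdgfra lay near background, at 3.96 to 4.36 in PD-SCC, and was above it on no WD-SCC array. Col6a3 was above background on 2 of 4 WD-SCC arrays, and its OT7 arrays overlapped between stages. Thy1 and Lum were lower in PD-SCC for all 3 lineages, at -3.92, -3.33 and -4.52 for Thy1 and -2.59, -0.13 and -0.43 for Lum. Lum was above background on 1 WD-SCC array only. Of the 12 markers, only Thy1 passed (adjusted p = 0.000810, limma). Fap was not above background on any array. The part of these markers in the Grem1 values was not tested.

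Fst, which encodes follistatin, fell in PD-SCC and was lower there in every lineage, at levels that spread widely between lineages. It measured 8.33 and 8.45 in OT7, 7.43 in OT14 and 5.66 in OT15 PD-SCC, against 10.54 and 9.63 in OT7, 9.09 in OT14 and 6.92 in OT15 WD-SCC. The stages overlapped because OT15 was low in both, while within each lineage every PD-SCC array was below every WD-SCC array. The means were 7.47 ± 1.29 in PD-SCC and 9.04 ± 1.54 in WD-SCC (SD, n = 4), and the difference was -1.58 ± 0.22 (SE), or 2.99-fold lower, with an adjusted p of 0.0123. Within lineages Fst differed by -1.70, -1.65 and -1.26 in OT7, OT14 and OT15. Fitted on stage alone, without the replicate block that pairs the lineages, the difference had an adjusted p of 0.252, and without OT7 it was 0.0772. A second Fst probe set, above background on 6 of 8 arrays, averaged 4.37 ± 1.10 in PD-SCC and 5.50 ± 1.41 in WD-SCC and fell by 1.13 when all probe sets were tested (adjusted p = 0.0381, limma). For the level of Fst between lineages whatever the stage, the F test gave an unadjusted p of 0.000135, but the adjusted p was 0.353 over all genes.

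Nog, the third antagonist, was not above background on any array. It measured 3.01 to 3.41 on PD-SCC arrays and 3.50 to 4.12 on WD-SCC arrays, so no fold is given (adjusted p = 0.192). Its stages did not overlap, which also held for Grem1 and Id2, and 24.1% of all genes had stages that did not overlap. The nonspecific control probes richest in G and C read 6.66 to 7.08 on PD-SCC arrays and 8.002 to 8.53 on WD-SCC arrays, and the part of this background in the Nog values was not tested.

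Of the ligands, Bmp2 had the largest difference, and it split by lineage. Bmp2 measured 8.72 and 8.59 in OT7, 8.33 in OT14 and 9.86 in OT15 PD-SCC, against 5.46 and 6.84 in OT7, 8.86 in OT14 and 6.43 in OT15 WD-SCC. The OT14 WD-SCC array was as high as the PD-SCC arrays, and the other 3 WD-SCC arrays were below all of them. The means were 8.87 ± 0.68 in PD-SCC and 6.90 ± 1.43 in WD-SCC (SD, n = 4), and the difference of 1.98 ± 0.69 (SE) was not past the threshold (adjusted p = 0.116). The lineages gave 2.504 for OT7, -0.53 for OT14 and 3.43 for OT15. The test of a difference between lineages gave an unadjusted p of 0.0389 and an adjusted p of 0.386. With either OT14 array left out, and so without OT14, the Bmp2 difference was 2.81 (adjusted p = 0.0349, limma).

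Bmp4 was above background on PD-SCC arrays only, and clearly so in OT7. Its values were 6.12 and 4.48 in OT7, 3.76 in OT14 and 3.58 in OT15 PD-SCC, against 3.58 and 3.48 in OT7, 3.66 in OT14 and 3.40 in OT15 WD-SCC. It was above background on 3 of 4 PD-SCC arrays and on none of the 4 WD-SCC arrays, whose controls were also brighter. Means of 4.49 ± 1.16 in PD-SCC and 3.53 ± 0.11 in WD-SCC put it at least 1.30-fold higher, not past the threshold (adjusted p = 0.234). Without the first OT7 PD-SCC array the difference was 0.47, against 0.96 with it.

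Bmp7 stayed near background in both stages, at 3.42 to 3.73 on PD-SCC arrays and 3.68 to 4.55 on WD-SCC arrays. This probe set was above background on none of the PD-SCC arrays and on 1 WD-SCC array, that of OT14. The difference of -0.46 had an adjusted p of 0.145, and the OT14 difference of -1.13 stood beside -0.20 in OT7 and -0.33 in OT15. The other 2 Bmp7 probe sets measured 3.01 to 3.70 in PD-SCC and 3.07 to 3.99 in WD-SCC, and 1 of them was above background on the OT14 PD-SCC array.

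Id2 was the Id gene that passed the test. It measured 6.04 and 5.79 in OT7, 6.71 in OT14 and 7.001 in OT15 PD-SCC, against 8.02 and 7.82 in OT7, 8.05 in OT14 and 8.56 in OT15 WD-SCC. No PD-SCC array reached the lowest WD-SCC array, and the 4 WD-SCC arrays lay within 1 log2 unit of each other. Means of 6.39 ± 0.57 in PD-SCC and 8.11 ± 0.31 in WD-SCC (SD, n = 4) gave a difference of -1.73 ± 0.16 (SE), 3.31-fold lower, with an adjusted p of 0.00471. By lineage the differences were -2.004 (OT7), -1.34 (OT14) and -1.56 (OT15), and without OT7 the adjusted p was 0.0674. The other 2 probe sets of Id2 were dimmer: one, above background on 6 arrays, differed by -0.52 (adjusted p = 0.359 over all probe sets) and the other was not above background on any array. Averaged over its 3 probe sets Id2 differed by -0.78 (adjusted p = 0.0183).

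Id1 and Id3 were lower in each lineage on average, without passing the test. Id1 measured 5.22 and 6.28 in OT7, 6.21 in OT14 and 5.32 in OT15 PD-SCC, against 5.65 and 7.21 in OT7, 6.54 in OT14 and 6.25 in OT15 WD-SCC. Id3 measured 6.03 and 8.51 in OT7, 7.66 in OT14 and 7.16 in OT15 PD-SCC, against 7.15 and 8.24 in OT7, 8.30 in OT14 and 8.19 in OT15 WD-SCC. The stages overlapped for both genes, and in each stage the OT7 array with the lower Id1 also had the lower Id3. The first OT7 PD-SCC array was the lowest of all 8 for both. The difference was -0.66 for Id1 (95% interval -1.66 to 0.35, adjusted p = 0.314) and -0.63 for Id3 (95% interval -2.06 to 0.79, adjusted p = 0.478), so falls as large as that of Id2 lie inside the Id3 interval and just outside that of Id1.

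Id4 was well above background in both stages and close to level. It measured 10.33 and 10.26 in OT7, 9.95 in OT14 and 10.31 in OT15 PD-SCC, against 10.26 and 10.86 in OT7, 10.03 in OT14 and 10.02 in OT15 WD-SCC. The difference was -0.08 with a 95% interval of -0.52 to 0.35 (adjusted p = 0.773), an interval that leaves out a change of the size seen in Id2. Its other 2 probe sets stood at 3.16 to 4.48 in PD-SCC and at 3.17 to 4.83 in WD-SCC, and differed by -0.04 and 0.09.

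**Figure D2:**
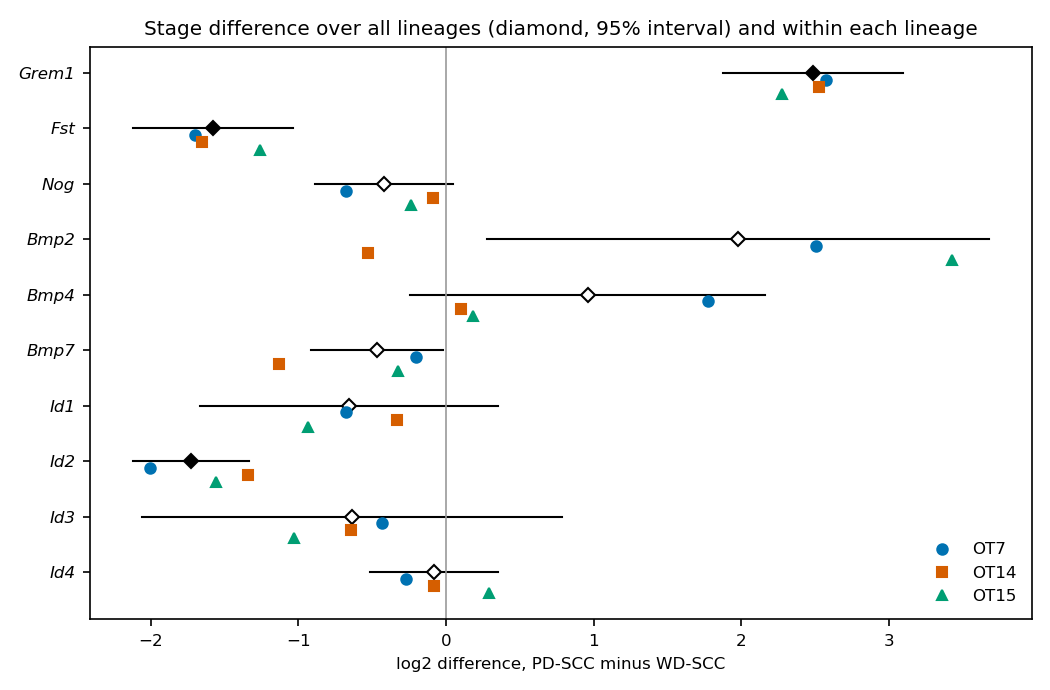
Log2 difference between PD-SCC and WD-SCC for each member, with the fit over all lineages as a diamond with its 95% interval (filled where the adjusted p is under 0.05) and the 3 lineages as coloured symbols. The lineages lie together for Grem1 at 2.27 to 2.57 and for Fst at -1.70 to -1.26, and Bmp2 has OT14 at -0.53 apart from OT7 at 2.504 and OT15 at 3.43.

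Across the lineages, 8 of the 10 members had the same sign of difference in all 3, the exceptions being Bmp2 and Id4, while 51.3% of all genes did. The 8 include Nog, Bmp4 and Bmp7, which were not above background on most arrays. In the OT7 lineage alone, where the residual spread comes from 2 arrays per stage, Grem1 (adjusted p = 0.0472) and Id2 (adjusted p = 0.0203) passed, and 9.07% of all genes did. No member passed the test of a difference in stage effect between lineages or of a level difference between lineages, by limma's F test, and neither did any other gene (0% called in both). At an unadjusted p under 0.05 the first test held 2 members, Bmp2 and Bmp7, and 2043 genes, and the second held 3 members, Fst, Grem1 and Id2, and 1251 genes.

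**Figure D3:**
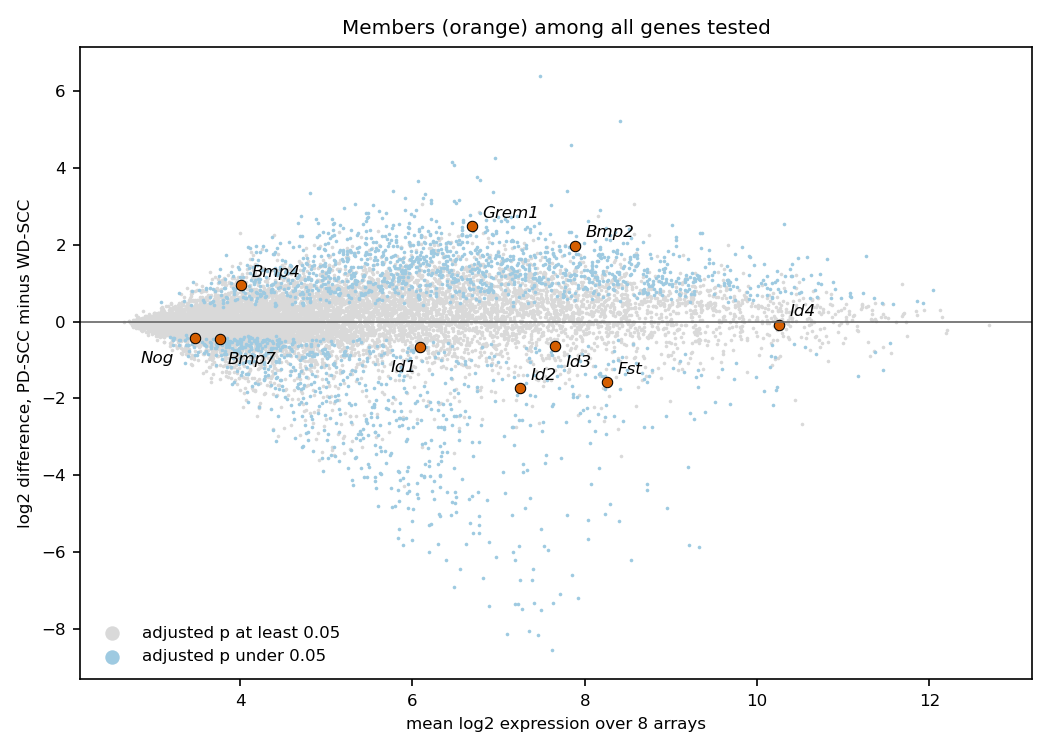
Log2 difference between PD-SCC and WD-SCC against the mean log2 expression over 8 arrays for all 17097 genes, blue where the adjusted p is under 0.05, with the 10 members in orange. Grem1 at 2.49 lies in the blue band above 0, Fst at -1.58 and Id2 at -1.73 lie in the band below it, and Nog and Bmp7 sit in the dense low end.

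Of the 68 other measured genes of the pathway, from 81 listed, 3 rose and 6 fell, which is 13.2% beside 12.6% of all genes, and their median difference was -0.16. Among other BMP and GDF ligands 1 of 9 fell and none rose. That was Bmp6, a BMP ligand, at 5.003 ± 0.77 in PD-SCC and 6.48 ± 0.33 in WD-SCC (SD, n = 4, limma adjusted p = 0.0214). The ligand genes Bmp8a and Gdf2 had differences of -0.88 (adjusted p = 0.287) and -0.30 (adjusted p = 0.110), and Gdf2 was above background on 1 PD-SCC array and on none in WD-SCC. None of 7 activin, inhibin and related ligands passed. Inhba, which encodes the activin A subunit bound by follistatin, measured 9.86 ± 0.58 in PD-SCC and 10.28 ± 0.47 in WD-SCC, a difference of -0.42 (adjusted p = 0.325). Nodal, a ligand of early embryos, lay near background at 4.07 ± 0.07 in PD-SCC and 4.35 ± 0.07 in WD-SCC (adjusted p = 0.110).

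Receptors and co-receptors held 1 gene that rose and 3 that fell among 13 measured. Rgmb, a BMP co-receptor, rose by 1.73 ± 0.27 (SE, adjusted p = 0.0163), and was above background on 4 of 4 PD-SCC and 2 of 4 WD-SCC arrays. Acvr1b, a type I receptor of activins, measured 4.09 ± 0.04 in PD-SCC and 4.83 ± 0.17 in WD-SCC (adjusted p = 0.0126). Acvrl1 and Eng, a receptor and a co-receptor that are abundant in endothelium, fell by 2.13 (adjusted p = 0.0131) and fell by 0.87 (adjusted p = 0.0384). Of the 8 endothelial and pericyte markers 1 fell, Cldn5, and none rose. Pecam1 and Cldn5 differed by -2.66 (adjusted p = 0.0531) and -1.19 (adjusted p = 0.00951) on the same arrays, and their part in the Acvrl1 and Eng values was not tested. The receptor genes Bmpr2 and Acvr1 had differences of 0.58 (adjusted p = 0.471) and 0.34 (adjusted p = 0.473). Bmpr1a, read by only 1 probe set, was not above background on any array, which does not show that the gene was silent.

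Among 15 other secreted antagonists and binding proteins, 1 fell and none rose. It was Sost, which encodes sclerostin, with a small difference of -0.38 near background (3.90 ± 0.18 in PD-SCC and 4.28 ± 0.14 in WD-SCC, adjusted p = 0.0386). Fstl1, a follistatin-like secreted protein that fibroblasts make, had differences of 0.34 (OT7), 4.40 (OT14) and 1.14 (OT15), and of 1.56 over all (adjusted p = 0.259). Nbl1, another BMP antagonist, differed by -0.71 (adjusted p = 0.135). None of the 3 chordin-cleaving proteases passed, and the proteases Bmp1 and Tll2 had differences of 0.80 (adjusted p = 0.261) and -0.30 (adjusted p = 0.178).

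The SMADs and their inhibitors had the highest list median, 0.63, with 2 of 13 genes higher and 1 lower. Of the 13, 11 were above background on at least 4 arrays, and all genes that met this bar had a median of 0.12. Smad5, which transmits BMP signals, measured 5.07 ± 0.30 in PD-SCC and 4.21 ± 0.18 in WD-SCC (adjusted p = 0.0181). Ski, a repressor of SMAD-driven transcription, rose by 1.58 ± 0.24 (SE, adjusted p = 0.0153), to 8.94 ± 0.21 in PD-SCC against 7.36 ± 0.52 in WD-SCC. Smurf1, a ubiquitin ligase for BMP SMADs and receptors, fell by 1.07 ± 0.18 (SE, adjusted p = 0.0213). Smad3 and Smad4 had differences of 0.63 (adjusted p = 0.101) and 0.75 (adjusted p = 0.273).

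None of 5 other BMP targets passed: the homeobox gene Msx1 differed by -0.42 (adjusted p = 0.0694), and Hey1, also a Notch target, had differences of 0.91 (OT7), -1.42 (OT14) and -3.39 (OT15), with -0.75 over all (adjusted p = 0.527). The 3 E protein genes that Id proteins bind did not pass either, with differences of 0.19 for Tcf3 (adjusted p = 0.709), 1.18 for Tcf4 (adjusted p = 0.271) and 0.07 for Tcf12 (adjusted p = 0.835).

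Of the 9 pathway genes called, 1 (Acvrl1) stayed past the threshold whichever array was left out, and Sost lost it in each such fit. The largest adjusted p with 1 array left out was 0.0708 for Bmp6, 0.0519 for Acvr1b, 0.111 for Eng, 0.0599 for Rgmb, 0.124 for Sost, 0.0507 for Smad5, 0.0713 for Smurf1 and 0.0550 for Ski. The 3 members called, Grem1, Fst and Id2, stayed past it in each such fit, with largest adjusted p of 0.0257, 0.0482 and 0.0245.

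**Figure D4:**
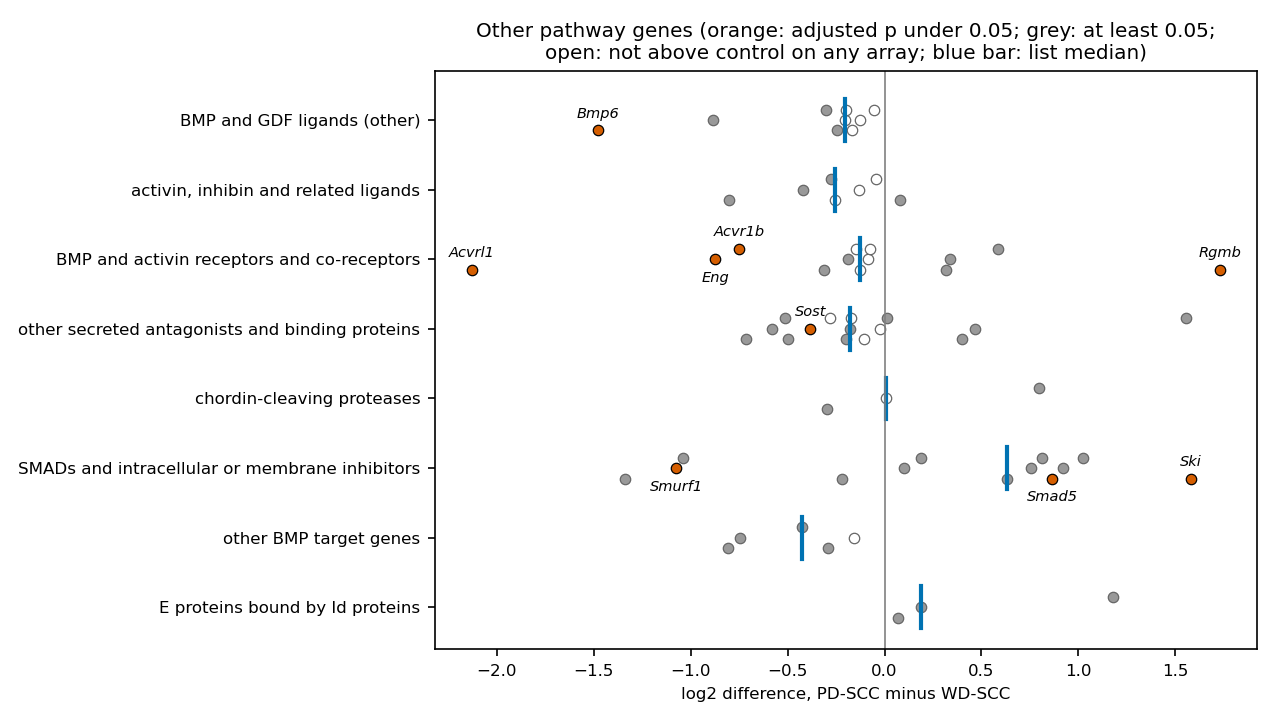
Log2 difference between PD-SCC and WD-SCC for the 68 other pathway genes by list, orange and named where the adjusted p is under 0.05, grey where it is not, open where the gene was not above background on any array, with the list median as a blue bar. Acvrl1 lies lowest at -2.13 and Rgmb highest at 1.73, and the list of SMADs has its median at 0.63.

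The genes whose profiles lay nearest to the called members were found by the root mean square difference of gene-centred log2 values over the 8 arrays. For Grem1 they were Igfbp4 (0.55), Twist2 (0.59) and Tspan11 (0.65), for Fst they were Cotl1 (0.66), Jag1 (0.68) and Ncoa3 (0.71), and for Id2 they were Riox2 (0.23), Fbrs (0.24) and Cln3 (0.26). The arrays share the stage difference, which 12.6% of genes show, so a small distance describes these 8 profiles alone.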

How the data were processed

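The deposited values are 1 log2 expression value per probe set and array, made by the authors with the affy package and RMA, per the submitters' processing notes, a method of background correction, quantile normalisation and probe summary. Of the software, no versions were found in the labels or notes. The range of the values, 2.40 to 13.2, is that of a log2 scale.

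Of 45141 probe sets, 28898 had 1 gene symbol in the platform annotation, 551 several and 15588 none, beside 104 controls. Symbols were updated by Entrez number through RefSeq (99.1% matched). Each gene took its probe set with the highest mean, which gave 17097 genes. Stage was fitted with limma 3.58.1 in R 4.3.3 (two-sided, lineage as a fixed block, 4 residual degrees of freedom). Effects within lineages used 2 residual degrees of freedom, from OT7. The fits were tested on data simulated from the same model with independent noise. Such data cannot show whether the OT7 arrays of 1 stage stem from different animals or whether background differs between stages.

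The lineage pairing comes from the series design. Across stages, the arrays' deviations from the stage mean had correlations of -0.04 (OT7), 0.02 (OT14) and 0.06 (OT15), all near 0. Members, pathway lists and markers were chosen with earlier results of these data known. Named were all members, each pathway gene called and up to 2 uncalled genes per list with the highest mean, chosen markers, and the 3 nearest profiles of each called member. Bmpr1a, Tcf12, Cldn5, Cd68, Csf1r, Cd79a, Itgam, Adgre1, Fap, Pdgfra, Pdgfrb, Col6a3, Thy1 and Lum were named outside that rule, after their values were seen. Alternatives changed the block, the OT7 averaging, the filter on dim genes, the probe set rule, the scaling, the prior and the arrays used. Testing all probe sets was added after seeing the data. Plots used Python 3.11.15 and matplotlib 3.10.9.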

Additional observations from a re-analysis of the deposited data

Results flagged for a closer look

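In 2 groups of 4 arrays, 1 array stood apart from the rest by Dixon's test, which flags about 1 group in 20 by chance among the 20 tested. Nog on the second OT7 WD-SCC array measured 4.12, against 3.50 to 3.57 on the others, a gap of 0.886 of the group's range, although no Nog value was above background. Id3 on the unnumbered OT7 WD-SCC array measured 7.15, against 8.19 to 8.30 on the others (gap 0.905 of the range).

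The stage effect of Bmp2 was 2.504 in OT7 and 3.428 in OT15, and -0.530 in OT14, with every array of a lineage on the same side. The test of the difference between lineages gave an adjusted p of 0.386 by limma's F test. Id4 had opposite signs in OT14 (-0.079) and OT15 (0.291), each resting on 1 array per stage, and the same test gave an adjusted p of 0.857.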

How the results depend on the processing

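Grem1 kept its direction and its call in all 19 alternatives, with differences of 2.15 to 2.68 and adjusted p of 0.00249 to 0.0467. Fst kept its direction (-1.96 to -1.36) but lost the call without the replicate block (adjusted p = 0.252), with lineage as a random block (0.242) and without lineage OT7 (0.0772). Id2 (-2.10 to -0.78) lost it without OT7 (0.0674). The number of members lower was thus 1 in both fits without a fixed block and 0 without OT7. Of the 7 uncalled members, 6 kept their sign in every alternative run, and Id4 reached 0.11 without OT7. Over all genes 2154 passed, 401 with the OT7 arrays averaged, which the paired test on 3 lineage means repeats by construction, and 246 without OT7. These 3 fits use fewer samples. Pathway genes called were 1 in each of those 3 fits, against 9. With 1 array left out, counts were 886 to 1689 for all genes (lowest without the first OT7 PD-SCC array, and under 1.5 times below 2154 only without the unnumbered OT7 WD-SCC array), 1 to 2 for members higher (Bmp2 joins without OT14), 2 for members lower and 3 to 9 for pathway genes. Without 1 of the OT14 or OT15 arrays, that lineage no longer enters the stage effect. Over the fits with 1 array left out, Id4 ranged over -0.21 to 0.076, Hey1 over -1.17 to 0.14 and Tcf3 over -0.13 to 0.47. Other uncalled genes turned sign: Acvr1 (-0.035) and Tcf3 (-0.17) with cyclic loess, Bmpr2 (-0.36) and Smad4 (-0.11) without OT7, and the cause was not tested. Cyclic loess gave 794 genes higher and 933 lower. With arrays scaled to their 75th percentile, the counts were 1150 and 1205 with a median over all genes of -0.21, against 1331 and 823 with a median of -0.06. The filter on dim genes left Nog, Bmp4 and Bmp7 out.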
